A study of Homo sapiens with 6 samples.

Results

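The integrated stress response transcription factor ATF4, its bZIP relatives DDIT3 (CHOP), ATF3, ATF5, CEBPB and CEBPG, and the stress effectors TRIB3, DDIT4, SESN2 and PPP1R15A were followed as a set of 10 genes out of 28278 symbols counted by RNA-Seq. HT29 is a human colorectal adenocarcinoma line of epithelial origin. It was transfected with an siRNA against the glycolytic enzyme aldolase A (siALDOA, 3 libraries, labelled ALDOA KD) or with a scrambled siRNA (siControl, 3 libraries, labelled WT), and total RNA of both groups was taken 48 h later. All 6 libraries therefore came from transfected cells of a single line, and the sequence of the ALDOA siRNA is not given in the sources used here. The 10 genes were chosen by name, with the difference between siALDOA and siControl in these same libraries already known, so their differences are given as a description. No p-value is printed for them, and where one is said to be called, this states only on which side of the threshold of the fit over all genes it lay.

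ATF4 sits at the end of a signalling route that starts with kinases of the translation initiation factor eIF2. When eIF2 is phosphorylated, most translation slows while the ATF4 mRNA is translated more, so that the amount of ATF4 protein is set largely without a change in its mRNA. ATF4 pairs with C/EBP proteins at composite C/EBP-ATF response elements (CAREs) and switches on genes for amino acid supply, redox balance and feedback control, many of which tumor cells use to keep growing under nutrient limits. RNA-Seq measures the mRNA level of the factor and of its targets, and neither ATF4 protein nor eIF2 phosphorylation was measured here. On hg38 the genes lie apart, ATF4 at chr22:39519695-39522683, DDIT3 at chr12:57516588-57521737, ATF3 at chr1:212565334-212620777, ATF5 at chr19:49928702-49933935, CEBPB at chr20:50190830-50192668. The others are CEBPG at chr19:33373685-33382686, TRIB3 at chr20:362835-397559, DDIT4 at chr10:72273919-72276036, SESN2 at chr1:28259518-28282491 and PPP1R15A at chr19:48872212-48876059.

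The libraries held 27277538 to 33237914 counts each, and ribosomal RNA genes took between 7.71% and 17.4% of them. After scaling with TMM factors, values are given as CPM (counts relative to the scaled library size). Means are followed by ± the SD of the 3 libraries of a group (n = 3), and the log2 fold change always sets siALDOA over siControl. A gene was called when edgeR's quasi-likelihood test over the 15307 tested genes gave it an adjusted p under 0.05. The target itself was at 283, 305 and 280 CPM in the siALDOA libraries and at 592, 637 and 668 CPM in the siControl libraries (log2 fold change -1.13, standard error 0.060, edgeR adjusted p = 6.95e-11), so the knockdown matched the labels in every library. The 8 markers of colorectal epithelium summed to 8381 to 8614 CPM with siALDOA and to 9188 to 9652 CPM with siControl. KRT18 was the one of the 8 with an adjusted p under 0.05 (0.0152, edgeR), and its call was lost in 4 of the 6 fits that left out a library. Of 10 markers of leukocytes, fibroblasts and endothelium, CD3E, COL1A2, PDGFRA and KDR were at 0, and only CD14, at 12.5 to 17.6 CPM, exceeded 2.77 CPM in any library. CD14 was at 16.9 ± 0.712 CPM in siALDOA against 13.5 ± 1.04 CPM in siControl (edgeR adjusted p = 0.0485), a call lost in 5 of those 6 fits, and the pan-leukocyte marker PTPRC had at most 1 count. The part of these shifts in the results that follow was not tested. In bulk RNA, fewer cells expressing a gene and less of its RNA per cell cannot be told apart.

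The promoters of the 10 genes were inspected for the letters of the CARE core, since the genes are grouped as an ATF4 axis and the core is where ATF4 and C/EBP proteins meet DNA. RefSeq windows of 300 bases, from 250 bases before a transcription start to 50 bases after it, were present for all 10 genes (GRCh38.p14, 1 to 3 windows per gene). The core TGATGNAA was searched on both strands, as was the cAMP response element TGACGTCA. CEBPG and ATF3 held the CARE core and PPP1R15A held the cAMP response element. The stretches are shown 5′ to 3′ on the strand of the gene with the match in capitals, and the position of the first matched base is given relative to the start.
CEBPG, chr19:33374061-33374088, plus strand, position -42: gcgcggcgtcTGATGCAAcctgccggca
ATF3, chr1:212565206-212565233, plus strand, position -191: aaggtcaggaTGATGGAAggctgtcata
PPP1R15A, chr19:48872353-48872380, plus strand, position -58: cctctcttcgTGACGTCAgcacgccggg

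The CARE core thus occurred in 2 of the 10 genes, against 4.46% of the 27305 genes in the promoter table, and the cAMP response element in 1 of 10, against 2.25%. Genes with several windows have more chances to hold a match, and counted by window the CARE core was in 10.5% of the 19 windows of the axis genes and in 3.62% of all 35116 windows. For the remaining genes the result says only that these letters are not in these windows, since response elements can lie further upstream or in introns. For comparison, 11 of 26 amino acid genes downstream of ATF4 with a window held the CARE core, or 42.3%, and 28.2% of their windows did. Some of the comparison genes taken up further on held it too, and their stretches are shown to make the shared letters visible. In CHAC1 and IARS1 the match lies on the strand opposite to the gene, so the reverse complement appears in capitals.
CHAC1, chr15:40953252-40953279, plus strand, position -209: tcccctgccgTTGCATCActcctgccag
IARS1, chr9:92293693-92293720, minus strand, position -13: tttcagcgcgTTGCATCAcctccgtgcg
JDP2, chr14:75427996-75428023, plus strand, position -16: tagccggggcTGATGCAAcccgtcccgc
PPP1R15B, chr1:204412027-204412054, minus strand, position -227: ccgccccggcTGATGCAAcctcacgctg

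ATF4 mRNA was abundant and nearly equal in both groups, whereas 7 of the other genes of the axis were lower in every siALDOA library than in any siControl library. ATF4 was at 529, 532 and 537 CPM with siALDOA and at 529, 549 and 554 CPM with siControl. The groups overlapped, and the log2 fold change was -0.031 (standard error 0.054, 95% interval -0.14 to 0.081). ATF4 was also the highest of the set per length, at 208 CPM per kilobase of exon in siControl.

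DDIT3, ATF5, CEBPB, CEBPG, TRIB3, DDIT4 and PPP1R15A, that is 7 of the 9 genes of the set that could be tested, were called lower, and 0 were called higher. Over all tested genes 5.29% were called lower and 4.36% were called higher. The same 7 genes had siALDOA libraries that all lay below all siControl libraries, against 14.6% of all tested genes. Since the set was drawn up with this contrast known, nothing is read from the difference between these shares. The median log2 fold change of the 9 genes was -0.28, and that of all tested genes was 0.0016.

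**Figure D1:**
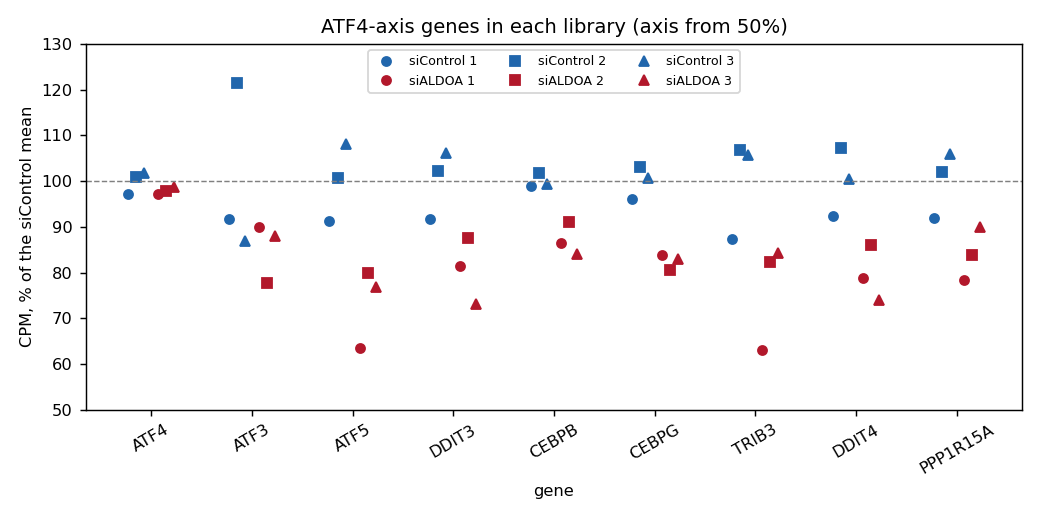
CPM of the 9 tested genes in each of the 6 libraries, as a percentage of the siControl mean of that gene (blue, siControl; red, siALDOA; circles, squares and triangles, replicates 1, 2 and 3; the vertical axis starts at 50%). The red points of ATF4 lie between 97.2% and 98.7%, and those of the 7 called genes lie between 63.1% and 90.9%, below all of their blue points.

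Among the partners and relatives of ATF4, ATF5, a bZIP factor that like ATF4 is translated under stress and is itself an ATF4 target, differed most. It was at 31.5, 39.6 and 38.1 CPM in the siALDOA libraries and at 45.2, 49.9 and 53.5 CPM in the siControl libraries (log2 fold change -0.44, standard error 0.086). The highest siALDOA library stayed below the lowest siControl library, and siALDOA replicate 1 was the lowest of all. The exons of ATF5 share 565 bases with exons of NUP62 on the opposite strand, and NUP62, at 192 ± 18.4 CPM with siALDOA and 187 ± 5.99 CPM with siControl, differed by 0.038 on the log2 scale (standard error 0.065). ATF5 exons also overlap IL4I1 by 75 bases on the opposite strand and the microRNA gene MIR4751 by 74 bases on the same strand.

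DDIT3 encodes CHOP, a C/EBP relative that drives apoptosis and protein synthesis genes when stress persists. It was at 23.6, 25.4 and 21.2 CPM with siALDOA and at 26.5, 29.6 and 30.7 CPM with siControl (log2 fold change -0.31, standard error 0.091). The groups were separated by little more than 1 CPM. Its exons overlap those of MARS1 by 355 bases and of MBD6 by 58 bases on the opposite strand. On the same strand they overlap those of the protein-coding gene ENSG00000285133 by 105 bases. MARS1, a methionyl-tRNA synthetase gene of the ATF4 program, was lower as well (log2 fold change -0.33, standard error 0.055, edgeR adjusted p = 4.15e-04), and how reads of the shared bases were assigned is not stated.

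CEBPB and CEBPG had little spread between libraries. CEBPB, a factor of inflammation and differentiation that dimerizes with ATF4, was at 163, 171 and 158 CPM with siALDOA and at 186, 192 and 187 CPM with siControl. Its log2 fold change was -0.20 (standard error 0.056). CEBPG lacks an activation domain of its own and acts mainly as a dimer partner, and it was at 183, 176 and 181 CPM with siALDOA and at 210, 225 and 220 CPM with siControl (log2 fold change -0.28, standard error 0.055). Both genes had coefficients of variation under 4% in each group. The antisense transcript CEBPB-AS1, which shares 231 exonic bases with CEBPB, was at 58.1 ± 2.30 CPM with siALDOA and 65.9 ± 1.07 CPM with siControl (log2 fold change -0.18, edgeR adjusted p = 0.0755).

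ATF3, an immediate stress-response repressor downstream of ATF4 and of several other signals, was the least abundant of the 9 tested axis genes, with 234 to 372 counts per library. It was at 9.02, 7.79 and 8.83 CPM with siALDOA and at 9.20, 12.2 and 8.71 CPM with siControl. Only siControl replicate 2 stood above the rest, and the groups overlapped. The log2 fold change of -0.23 (standard error 0.14, 95% interval -0.52 to 0.062) was not called. It was -0.070 without siControl replicate 2 and -0.32 without siControl replicate 3, so the value moved with which control library was left out.

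Of the effectors, TRIB3, a pseudokinase that binds ATF4 and CHOP and dampens them, was at 160, 209 and 214 CPM with siALDOA and at 222, 271 and 269 CPM with siControl (log2 fold change -0.38, standard error 0.090). Replicate 1 was the lowest library of both groups, and siALDOA replicates 2 and 3 lay just under siControl replicate 1. Without siALDOA replicate 1 the log2 fold change was -0.26. DDIT4, also named REDD1, restrains mTORC1 under stress, and it was at 157, 172 and 147 CPM with siALDOA and at 184, 214 and 200 CPM with siControl. Its log2 fold change was -0.33 (standard error 0.067), with a gap of 12 CPM or more between the groups.

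PPP1R15A encodes GADD34, which brings protein phosphatase 1 to eIF2 and so closes the feedback loop of the response. It was at 48.1, 51.5 and 55.3 CPM with siALDOA and at 56.5, 62.7 and 65.2 CPM with siControl (log2 fold change -0.25, standard error 0.073). The groups did not overlap, but siALDOA replicate 3 and siControl replicate 1 were close. SESN2, a leucine sensor that inhibits mTORC1, was listed at 0 in all 6 libraries and received no fold change. So were 7308 symbols in all, among them RPL7A, NDUFS1 and EIF3K, picked after their values were seen, which dividing human cells need. The 0 of SESN2 is therefore reported as listed and not as absence of its mRNA.

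From the lowest log2 fold change upward the order was ATF5, TRIB3, DDIT4, DDIT3, CEBPG, PPP1R15A, ATF3, CEBPB and ATF4, and as far as CEBPB no neighbours differed by more than the standard error of either gene. The 95% intervals of ATF5, TRIB3, DDIT4 and CEBPG lay wholly below that of ATF4, and those of DDIT3, PPP1R15A, CEBPB and ATF3 overlapped it.

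**Figure D2:**
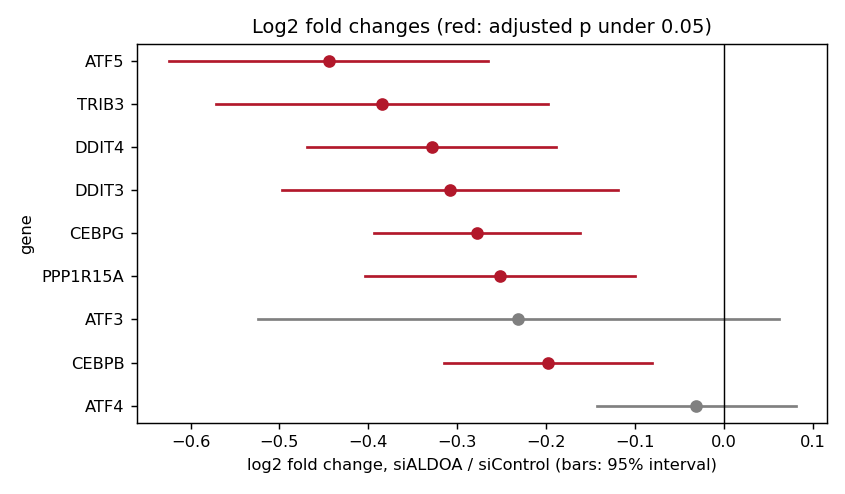
Log2 fold changes of siALDOA over siControl for the 9 tested genes (points) with their 95% intervals (bars), from edgeR; red genes had an adjusted p under 0.05 over all genes, grey genes did not. ATF5 is lowest at -0.44, and the interval of ATF4 runs from -0.14 to 0.081.

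Per kilobase of exon, the siControl means ran from 208 CPM for ATF4 through CEBPB at 102, DDIT4 at 94.1, TRIB3 at 77.2, CEBPG at 53.8, DDIT3 at 22.1, PPP1R15A at 17.9 and ATF5 at 17.1 to ATF3 at 2.51. Of the neighbours in this order of levels, only PPP1R15A and ATF5 had overlapping siControl libraries. The lengths are the union of all annotated exons of a gene in GENCODE, which counts exons that HT29 cells may not use. In siALDOA the same scale gave 204 for ATF4, 59.1 for TRIB3 and 12.6 for ATF5.

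Relative to the siControl mean, the median log2 difference of the 9 genes was -0.29, -0.25 and -0.25 in siALDOA replicates 1, 2 and 3. It was -0.11, 0.035 and 0.026 in siControl replicates 1, 2 and 3. All 9 genes lay below the siControl mean in each siALDOA library. They also did in siControl replicate 1, which was the lowest of its group for 8 of the 9 genes and held the largest share of ribosomal RNA, 17.4%. The part of ribosomal RNA in that difference was not tested. When ribosomal RNA genes were left out the same 7 genes were called.

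The calls depended on which libraries entered the fit. Leaving out siControl replicate 2 or siControl replicate 3 left 3 called genes each time, ATF5, CEBPG and DDIT4, while the calls over all genes fell to 490 and 471 lower genes. ATF5, CEBPG and DDIT4 were called in all 6 fits that left out 1 library, and all 9 log2 fold changes stayed negative in each. Scaling by library totals only, in which ribosomal RNA counts enter the total, left ATF5 as the only called gene and took ATF4 to 0.041. Under that scaling 279 genes were called lower and 896 higher, against 810 and 668. With ribosomal RNA genes left out before scaling by totals, 7 genes of the set were called.

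**Figure D3:**
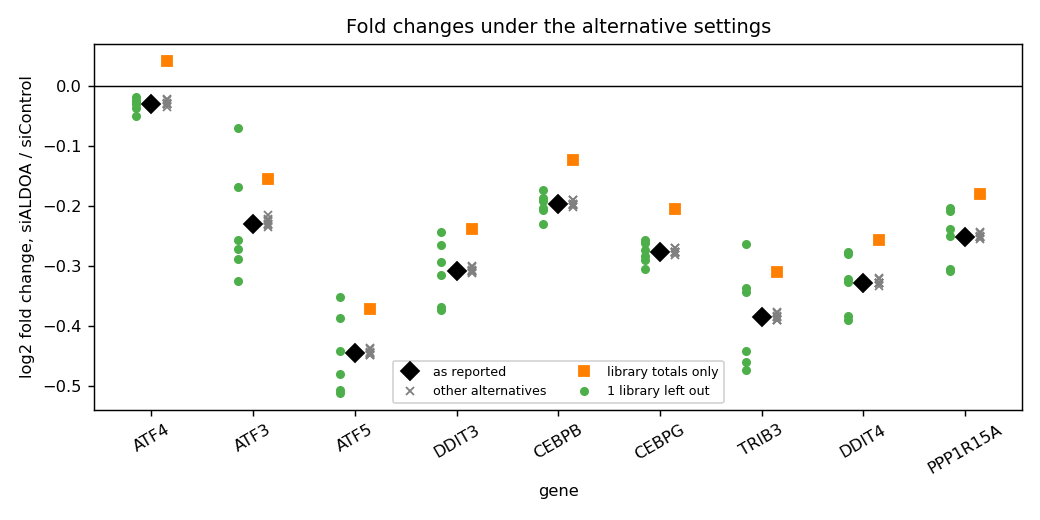
Log2 fold changes of the 9 tested genes as reported (black diamonds), with each library left out in turn (green circles), with scaling by library totals only (orange squares) and under the other alternatives (grey crosses). All points are below 0 except ATF4 with library totals only, at 0.041, and ATF3 spreads most, from -0.32 to -0.070 with a library left out.

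Upstream of ATF4, the mRNAs of the eIF2 kinases did not move together. The comparison lists from here on were also drawn up with earlier results of these data known, so their p-values and counts are a description. EIF2AK2 encodes PKR, which senses double-stranded RNA and is induced by interferon. It rose from 276, 292 and 265 CPM with siControl to 438, 465 and 442 CPM with siALDOA (log2 fold change 0.69, standard error 0.057, edgeR adjusted p = 3.36e-08). All siALDOA libraries were far above the siControl libraries. The other kinases were not called. EIF2AK1 (HRI), the heme and mitochondrial stress kinase, had a log2 fold change of -0.022 (95% interval -0.14 to 0.094), EIF2AK3 (PERK), the ER stress kinase, 0.0068 (-0.21 to 0.22) and EIF2AK4 (GCN2), the amino acid sensor, -0.067 (-0.23 to 0.099).

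Of the 9 genes listed, which are the kinases, GCN1, DELE1, OMA1 and PRKRA on their activating side and IMPACT, an inhibitor of GCN2, 1 was called higher and 0 lower, and in this list EIF2AK2 was the called gene. For scale, 4.36% of all tested genes were called higher and 5.29% lower. Among 12 genes of eIF2, its exchange factor eIF2B and its phosphatase, 2 were called lower and 0 higher, with a median log2 fold change of -0.022. EIF2B2, the β subunit of eIF2B, fell from 22.4 ± 0.885 CPM in the control libraries to 15.5 ± 1.08 CPM after knockdown (log2 fold change -0.53, standard error 0.094, edgeR adjusted p = 8.13e-04). EIF2S1, the subunit of eIF2 that the kinases phosphorylate, fell from 78.8 ± 3.38 CPM to 64.8 ± 4.47 CPM (log2 fold change -0.28, edgeR adjusted p = 0.00922). The EIF2S1 call was lost under scaling by totals and when siALDOA replicate 3 or siControl replicate 2 was dropped.

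The closest relatives of the effectors were compared next, and of 5 tested paralogs 0 were called at an adjusted p under 0.05 by edgeR, while 2 of them, PPP1R15B and SESN1, had an unadjusted p under 0.05 and DESeq2 called 1, PPP1R15B. PPP1R15B, also named CReP, the constitutive counterpart of PPP1R15A that brings protein phosphatase 1 to eIF2 in a complex of its own, was at 169 ± 7.13 CPM with siALDOA and 190 ± 5.78 CPM with siControl (log2 fold change -0.17, edgeR adjusted p = 0.0690, with a range from 0.0257 to 0.533 over the alternatives). SESN1, a sestrin that unlike SESN2 had counts, was at 39.9 ± 3.40 CPM and 34.0 ± 2.12 CPM, a difference of 0.23 on the log2 scale (edgeR adjusted p = 0.0778), and was called with library totals only and with the replicate block. TRIB1, TRIB2 and SESN3 had log2 fold changes of -0.095, 0.062 and -0.26, and their groups overlapped. DDIT4L had 0 counts.

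Of 43 other bZIP factors, 35 were tested, of which 6 were called lower and 1 higher, with a median log2 fold change of -0.058. JUND and JUN, subunits of AP-1, fell by 0.50 and 0.41 on the log2 scale (standard errors 0.067 and 0.056, edgeR adjusted p = 3.72e-05 and 5.02e-05). JDP2, an AP-1 repressor whose promoter carries the CARE core shown above, fell from 25.2 ± 0.767 CPM to 18.2 ± 1.74 CPM (log2 fold change -0.47, edgeR adjusted p = 0.00225). CREB3L2, a membrane-bound factor of the secretory pathway, fell by 0.45 (edgeR adjusted p = 0.00395). BATF2, an interferon-inducible factor, rose by 1.19 (standard error 0.16, edgeR adjusted p = 4.41e-05), from 4.69 to 10.7 CPM. The C/EBP genes CEBPA and CEBPD were not called, with log2 fold changes of -0.12 and 0.26. ATF6 and XBP1, the factors of the other branches of the unfolded protein response, were not called. All siALDOA libraries of CEBPA and ATF6 lay below all siControl libraries, and those of CEBPD lay above them. Over all 15307 tested genes, 2228 lay below in this way and 2005 above.

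Downstream, the amino acid genes resembled the axis genes in direction and size. Of 33 such genes 30 were tested, and all 30 had negative log2 fold changes, with a median of -0.32 and a range from -0.73 to -0.045. Of these, 18 were called lower and 0 higher, and the count was 11 with library totals only. Among all tested genes, 5.29% were called lower and 4.36% higher. The list was drawn up with earlier results of these data known, so nothing is read from the difference between these shares. SLC7A11, the cystine importer, had the largest difference, at 221 ± 8.66 CPM with siALDOA and 365 ± 11.8 CPM with siControl (log2 fold change -0.73, standard error 0.056, edgeR adjusted p = 1.38e-08). IARS1, the isoleucyl-tRNA synthetase, fell by 0.37 on the log2 scale (standard error 0.055, edgeR adjusted p = 1.31e-04). XPOT, which exports tRNA from the nucleus, also fell by 0.37, and PSAT1, an enzyme of serine synthesis, by 0.44 (edgeR adjusted p = 1.38e-04 and 1.54e-04).

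The tested genes with a promoter window were also split by whether they held the CARE core, as a description with no test of the difference. Tested genes with no window were left out of this split, so its counts are smaller than those of the lists. The 11 amino acid genes with the core had a median log2 fold change of -0.33, with 9 called lower, and the 13 without it had a median of -0.32, with 7 called lower. Of the other bZIP factors, 2 held the core, JDP2 and CREB3L2, and both were called lower, with a median of -0.46, while the 28 without it had a median of -0.058, with 3 called lower. The core of CREB3L2 was in its window at chr7:137932939-137933238, while its window at chr7:138002037-138002336 held the cAMP response element. Which transcription starts HT29 cells use was not tested. Among the other ATF4 and CHOP targets, CHAC1, at -0.76, was the 1 tested gene with the core, and the 13 without it had a median of -0.076, with 6 called lower. In the set of 9 tested axis genes, CEBPG and ATF3 carried the core and had a median of -0.25, with 1 called lower, and the 7 without it had a median of -0.31, with 6 called lower.

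Other targets of ATF4 and CHOP were less uniform, with 9 called lower and 2 higher among 20 tested and a median log2 fold change of -0.22. Over all tested genes 5.29% were lower and 4.36% higher by the same call. CHAC1, which degrades glutathione, was at 24.4 ± 4.47 CPM with siALDOA and 41.3 ± 4.60 CPM with siControl (log2 fold change -0.76, edgeR adjusted p = 7.51e-05). NIBAN1 and GDF15, a stress-induced secreted factor, fell by 0.75 and 0.67 (edgeR adjusted p = 4.00e-05 and 4.40e-07), and SQSTM1, the autophagy receptor p62, by 0.38 (edgeR adjusted p = 2.65e-04). In the other direction, ERO1A, an ER oxidase, rose by 0.28 (edgeR adjusted p = 0.00452) and TXNIP, a glucose-responsive inhibitor of thioredoxin and glucose uptake, by 0.34 (edgeR adjusted p = 0.00500). TXNIP was not called without siALDOA replicate 2, where its log2 fold change was 0.27. Of the pro-apoptotic CHOP targets, TNFRSF10B, the death receptor DR5, fell by 0.23 (edgeR adjusted p = 0.0297), and BBC3 and BCL2L11 were not called. The TNFRSF10B call was lost with library totals only and when siALDOA replicate 1 or 3 or siControl replicate 1 or 3 was dropped.

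Genes of the ATF6 and XBP1 branches, which answer ER stress by making chaperones, had a positive median log2 fold change of 0.15. Of 14 tested, 5 were called higher and 2 lower, while 4.36% of all tested genes were called higher and 5.29% lower. CRELD2, MANF, PDIA4 and CALR rose by 0.63, 0.43, 0.27 and 0.24 on the log2 scale, with edgeR adjusted p = 8.66e-04, 0.00605, 0.00223 and 0.00647. The other gene called higher was the chaperone HSP90B1, at 0.26. Without siControl replicate 3 the count of higher calls was 3, since CALR and HSP90B1 were then not called. EDEM1 and SEL1L, of ER-associated degradation, fell by 0.25 and 0.19 (edgeR adjusted p = 0.0137 and 0.0411), and neither was called with library totals only or without siALDOA replicate 2, siControl replicate 2 or siControl replicate 3. SEL1L was also not called without siALDOA replicate 1 or siALDOA replicate 3. HYOU1, like SESN2, had 0 counts in all 6 libraries. The ER stress response element, searched in the same promoter windows, was held by 5 of the 15 listed genes of this branch and by 0 of the 10 axis genes, against 0.0916% of all genes in the table.

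**Figure D4:**
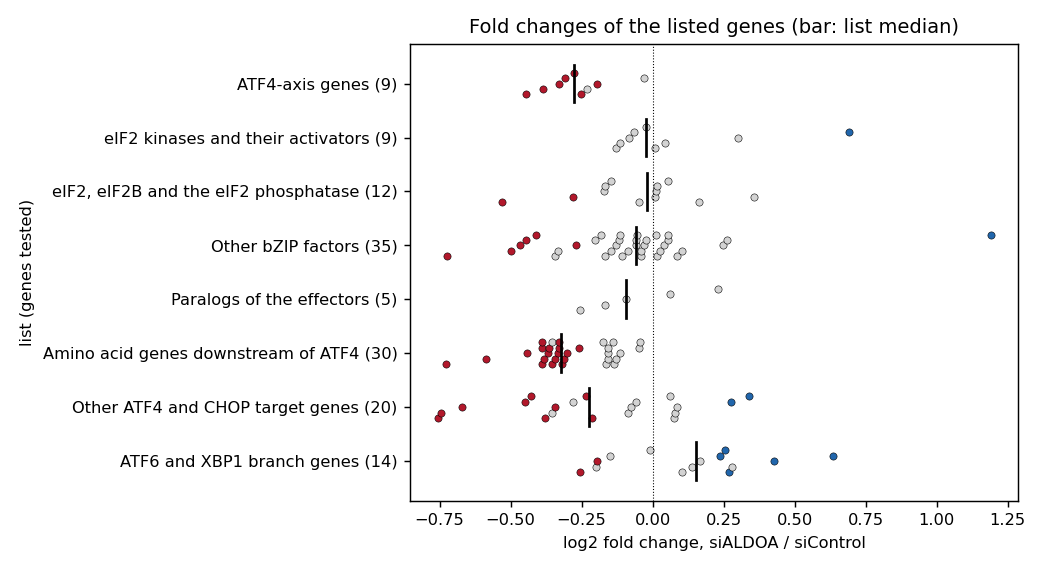
Log2 fold changes of siALDOA over siControl for the tested genes of each list, with the number tested in brackets (points; red, called lower; blue, called higher; grey, not called) and the list median (black bars). The medians are -0.28 for the ATF4 axis and -0.32 for the amino acid genes, near 0 for the eIF2 lists and 0.15 for the ATF6 and XBP1 branches.

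Over the 6 libraries, the tested genes of at least 10 CPM whose centred log2 CPM lay nearest to that of ATF4 were QSOX2, YWHAG and PRKAR1A, at root mean square distances of 0.0062, 0.011 and 0.013. The 7 called axis genes, which passed the same level, lay further away, with CEBPB nearest at 0.093, rank 4340 of 10078 genes, and ATF5 furthest at 0.24, rank 9660. Being nearest to ATF4 here meant differing little between the groups, as QSOX2, YWHAG and PRKAR1A had log2 fold changes of -0.038, -0.024 and -0.019. The distances of the 7 called genes therefore largely restate their fold changes.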

How the data were processed

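RNA of HT29 cells (3 siALDOA and 3 siControl libraries, 48 h) was analysed. Per the labels and methods, the authors aligned reads to hg38 with tophat2, counted them with gfold and deposited raw counts per gene symbol. The annotation, strand setting and handling of multiply mapped reads are not given in the sources used here, so overlapping genes cannot be told apart. The libraries are labelled biological replicates, and no culture batch is named, so p-values measure the spread between these libraries, which may be technical. Counts were filtered with filterByExpr, scaled by TMM and tested with edgeR 4.0.16 (R 4.3.3) over all genes with Benjamini-Hochberg adjustment, without covariates. Standard errors are the log2 fold change over the square root of F, and log2 CPM used a prior count of 2. Totals ran from 27277538 to 33237914 counts, and the precision also depended on the spread between libraries. The members and lists were chosen with earlier results of these data known.

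Named genes were the members, ALDOA, the eIF2 kinases, the paralogs, the called genes with the 4 smallest p per list and direction, and the 3 profiles nearest to ATF4. Other genes were named after their values were seen. Alternatives were limma-voom (limma 3.58.1), DESeq2 1.42.0, library totals, upper quartile scaling, other filters, no ribosomal RNA genes, a replicate block, each library left out, and the unadjusted P < 0.01 of the study. In simulated siALDOA and siControl counts of 15147 genes, edgeR recovered 70.4% of genes changed by 0.5 and 86.9% of genes changed by 1 on the log2 scale. Of 163 calls in the simulation, 8 were false. Every tested axis gene differed by less than 0.5, so these shares do not give the recovery at their size. Exon lengths and overlaps came from GENCODE 44, and figures were drawn with matplotlib 3.10.9.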

Additional observations from a re-analysis of the deposited data

How the results depend on the processing

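Of the 9 tested genes of the axis, 7 were called under limma-voom, upper quartile scaling, both filters, without ribosomal RNA genes, with the replicate block and at the unadjusted threshold. DESeq2 called 6, without TRIB3, and library totals only called 1. Over the fits with 1 library left out the count ranged from 3 to 7. The alternative without ribosomal RNA genes and with library totals, chosen after seeing the data, called 7. Of all calls, 23.7% were lower with library totals only, against 54.8%.

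For the eIF2, eIF2B and phosphatase genes, 4 were called lower by DESeq2, with the replicate block and at the unadjusted threshold, 1 with library totals only, and 1 to 3 with a library left out. The replicate block called 1 of them higher. Of the paralogs, DESeq2, the replicate block and the unadjusted threshold each called 1 lower, and library totals only, the replicate block and the unadjusted threshold each called 1 higher. Of the amino acid genes, 11 were called lower with library totals only. With a library left out, 1 to 2 of the other ATF4 and CHOP targets were called higher. Of the ATF6 and XBP1 branch genes 0 to 2 were then called lower and 3 to 5 higher, and library totals only called 0 lower. The cause of these shifts was not tested, other than that a fit without a library rests on fewer samples.

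Signs turned for genes that were not called. With library totals only, the log2 fold change was 0.041 for ATF4, 0.051 for EIF2AK1, 0.0035 for EIF2AK4, 0.034 for QSOX2, 0.048 for YWHAG and 0.053 for PRKAR1A. EIF2AK3 was at -0.0038 with limma-voom, and at -0.061, -0.048 and -0.067 without siALDOA replicate 1, siALDOA replicate 3 and siControl replicate 2, with a highest value of 0.121 without siALDOA replicate 2. TRIB2 was at -0.059 without siALDOA replicate 1 and -0.059 without siControl replicate 3, and at most 0.161 without siALDOA replicate 3. NUP62 ranged from -0.030 without siALDOA replicate 3 to 0.107 without siALDOA replicate 1, and BCL2L11 from -0.024 without siControl replicate 3 to 0.187 without siControl replicate 1. SESN3 ranged from -0.46 without siControl replicate 2 to 0.18 without siControl replicate 1.

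Same-numbered libraries shared deviations with correlations of 0.035, 0.027 and 0.026, under the 0.1 set for pairing, although each siALDOA library correlated best with the siControl library of its number. The replicate block raised the lower calls over all genes from 810 to 1175 and left 7 called in the axis. At these depths ATF3, the least abundant tested gene of the axis, has the widest interval.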
